A study of Mus musculus with 2 samples.

Results

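Contigs are stretches of the genome listed as covered by RNA reads of 1 strand. The regions described here are contigs of kidney RNA that lie over a contig of the other strand. The contig table of the study holds 809659 contigs on the mouse build mm9, of which 788382 lie on chromosomes 1 to 19 and are shorter than 5000 nt. Those sharing 100 nt or more with a contig of the other strand, whatever the length of the partner, number 37440, which is 4.75% of that set. They form 21984 pairs of a plus and a minus contig. Chromosomes X, Y and M lie outside the rule.

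The tissue was kidney of adult C57BL/6J mice aged 8 weeks, pooled from males and females of 1 litter, with no treatment named in the labels. There was 1 group of 2 replicates that carry 1 donor label, so nothing in the design contrasts conditions. Polyadenylated RNA above 200 nt was read as stranded pairs of 76 nt, and the gene tables hold 67252609 expected counts in replicate 1 and 87330097 in replicate 2. The tissue label was checked in the gene tables: Slc34a1, the phosphate transporter of the proximal tubule, had 5821 and 4317 TPM in replicates 1 and 2, and Nphs1, which encodes nephrin of the podocyte, 27.0 and 22.4 TPM. The contig table is 1 table for the whole series, with no column per replicate, so the values below have no replicate error and no test was run. Intervals in percent are 95% exact binomial intervals and cover counting error only, and contigs that share a partner are not independent.

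Both strands of mammalian DNA can be transcribed over the same bases. Neighbouring genes on opposite strands can run past each other at their 3′ ends, promoters can send out transcripts in both directions, and a short antisense RNA can arise inside a longer gene. Such antisense transcripts can interfere with transcription of the partner or form double-stranded RNA with it, and a library that keeps the strand is needed to see them. No gene annotation of mm9 was used here, so regions are named by position and not by gene.

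The ends of the contigs set 3 arrangements apart. In 13727 pairs (62.4%) 1 contig lay wholly within the other. In 4888 pairs (22.2%) the shared stretch held the 5′ end of each contig, called head-to-head, and in 3369 pairs (15.3%) it held the 3′ end of each, called tail-to-tail. A contig end is where the listed stretch stops and need not be the end of a transcript. Nearly all pairs joined contigs both under 5000 nt (21001 pairs, 95.5%), and 983 pairs had a longer partner. Of the members, 33179 (88.6%) had 1 partner, 3361 had 2 and 900 had 3 or more. The strands were used evenly, with 18740 plus and 18700 minus members.

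The shared stretch was short in most pairs, with a median of 213 nt, and 25% of pairs shared 133 nt or less while 25% shared 329 nt or more. The longest was 4809 nt. By shared length, 10217 pairs (46.5%) shared 100 to under 200 nt, 9239 (42.0%) shared 200 to under 500 nt, 1938 shared 500 to under 1000 nt and 590 shared 1000 nt or more. The median was 202 nt in nested, 236 nt in head-to-head and 213 nt in tail-to-tail pairs. Nested pairs were most frequent near the limit, with 4971 at 100 to 149 nt and 1812 at 150 to under 200 nt, and their number was slightly higher at 250 to 299 nt (1635) than at 200 to 249 nt (1520). In 20029 pairs (91.1%) the shared stretch made up 50% or more of the shorter contig.

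**Figure D1:**
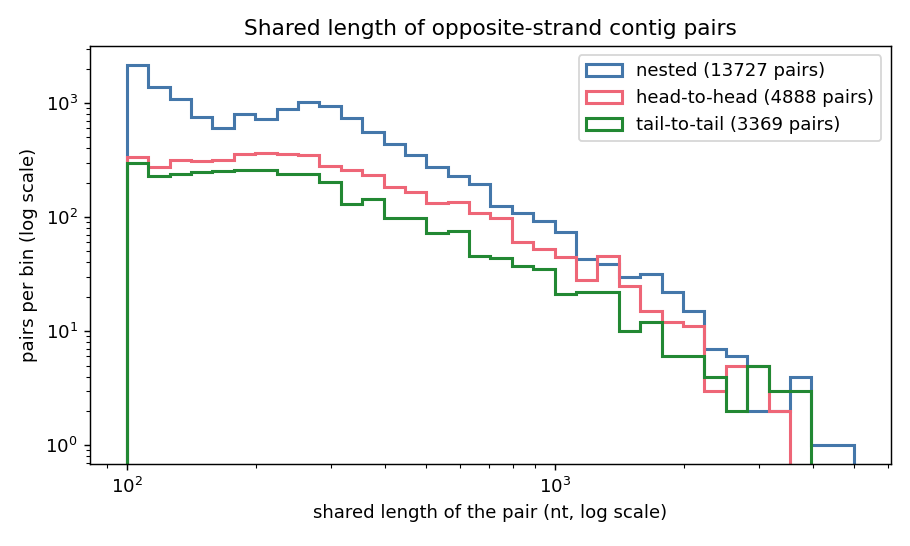
Number of opposite-strand pairs (vertical axis, log scale) by shared length in nt (horizontal axis, log scale), with a line for nested (13727), head-to-head (4888) and tail-to-tail (3369) pairs. Nested pairs lead at short lengths and all arrangements thin out above 500 nt, up to the longest stretch of 4809 nt.

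The limits of the rule cut through a continuous range. The 248 pairs that share exactly 100 nt had a median ratio of levels of 3.29 and a median column 8 value of 0.32 in the weaker contig, and the 275 pairs just outside, at 99 nt, had 3.64 and 0.32. The longest member measured 4994 nt (chromosome 18, 67560177 to 67565170, level 6.62). The shortest contigs kept out by length, 1 on chromosome 11 and 1 on chromosome 5, measured 5003 nt and had levels of 1.53 and 1.87.

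Paired contigs were unevenly spread over the chromosomes. Their share of contigs under 5000 nt was highest on chromosomes 19 (6.56%), 11 (6.48%) and 7 (6.12%), and lowest on chromosomes 13 (3.45%) and 18 (3.24%). Medians over pairs lay in a narrow range: the shared length lay between 194 nt (chromosome 15) and 225 nt (chromosome 17), and the ratio of levels between 3.12 (chromosome 6) and 3.98 (chromosome 8).

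Levels are the deposited column 7, which runs from 0.032 to 22600 over the table. They are proportional to column 9 per nt of the whole contig, so a level does not single out the shared stretch. Column 9 is unnamed and is read here as summed coverage. The stronger contig of a pair is the 1 with the higher level. Its median level was 0.588, against 0.133 for the weaker contig, and the median ratio of stronger over weaker was 3.55. The middle 50% of ratios ran from 1.80 to 9.26, and the highest reached 13964. In 6396 pairs (29.1%, interval 28.5 to 29.7) the levels were within 2-fold, in 5204 pairs (23.7%, interval 23.1 to 24.2) the ratio was 10 or more, and in 683 pairs (3.11%) it was 100 or more. Among all 41240 pairs that share 1 nt or more at any length, 22.4% had a ratio of 10 or more, which is near the share of the pairs described here. The plus contig was the stronger in 10937 pairs and the minus contig in 11013, with 34 pairs equal.

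Depth behind these ratios was low on the weaker side. Over pairs, summed coverage per nt had a median of 15.7 in stronger contigs and 3.55 in weaker contigs, and in 25% of pairs the weaker contig had 2.26 or less. Since the lowest level in the table is 0.032, a fainter antisense signal could not appear as a partner.

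The median level of the weaker contig moved little while that of the stronger contig spanned orders of magnitude. Over all pairs the weaker median of 0.133 was near that of all contigs on chromosomes 1 to 19, which was 0.139. Where the stronger contig was under 0.3 (7101 pairs), the stronger median was 0.181 and the weaker median 0.0940. For stronger levels of 1 to 3 (4123 pairs) the medians were 1.65 and 0.191, and for 10 to 30 (1051 pairs) they were 14.7 and 0.294. In the 48 pairs whose stronger contig reached 100 or more, the stronger median was 185.5 and the weaker median 0.168, a median ratio of 1147. Across pairs, Spearman's rho between stronger and weaker level was 0.51 and between stronger level and ratio 0.74 (n = 21984 pairs). These are descriptions across pairs of the same libraries, in which the stronger level also enters the ratio and bounds the weaker level. The upper end of the weaker levels did widen: the 95th percentile was 0.195 for stronger levels under 0.3, 8.32 for 10 to 30 and 18.1 for 30 to 100. The 75th percentile in these classes was 0.130, 1.56 and 3.205. For stronger levels of 100 or more the 75th percentile was 0.3965 and the 95th 2.95. The part that the assignment of reads to strands plays in the weaker contigs was not tested.

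**Figure D2:**
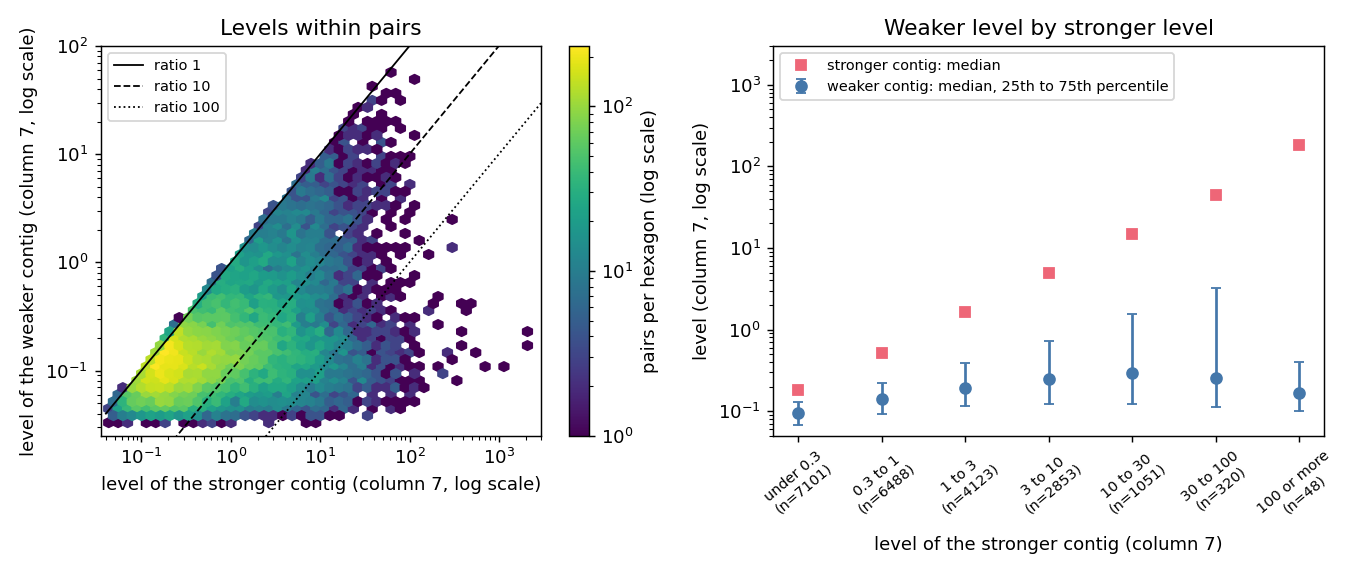
Left, level of the weaker contig against level of the stronger contig (column 7, log scales), coloured by the number of pairs per hexagon, with lines at ratios of 1, 10 and 100. Right, median levels in 7 classes of the stronger level, with squares for stronger contigs and circles for weaker contigs (bars, 25th to 75th percentile): the stronger median runs from 0.181 to 185.5, and the weaker median stays between 0.0940 and 0.294.

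The arrangements differed in these ratios. Nested pairs had a median ratio of 4.22, head-to-head pairs 2.89 and tail-to-tail pairs 2.54, and levels within 2-fold were found in 24.6%, 35.2% and 38.4% of them. Their median stronger levels also differed, at 0.635, 0.5955 and 0.399. Since the ratio moves with the stronger level, the part of arrangement in these differences was not tested. In 11134 nested pairs (81.1%) the outer contig was the stronger, with medians of 0.507 for outer and 0.134 for inner contigs. With the outer contig cut into 3 equal parts from its 5′ end, the centre of the inner contig fell into the first part in 3871 pairs, the middle part in 6500 and the last part in 3356. An inner contig that fills most of the outer contig must have its centre in the middle part. The middle count is thus partly set by the nesting, and no preference for a place is read from it. Spearman's rho between shared length and ratio was -0.01 over the 21984 pairs, with medians of 3.48 at 100 to under 200 nt and 3.31 at 1000 nt or more. Large ratios were rarer in long overlaps: 24.5% were 10 or more in the first of these classes and 14.7% in the second. The median stronger level was 0.395 in the first and 3.65 in the second, and its part was not tested.

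Among contigs with a single partner, the 3 largest ratios belonged to short, weak contigs lying over very abundant ones. On chromosome 7, a minus contig of 2421 nt at level 661 (52712948 to 52715368) enclosed a plus contig of 272 nt at level 0.105, a ratio of 6295. On chromosome 3, a minus contig of 5359 nt at level 357 (101380000 to 101385358) enclosed a plus contig of 131 nt at 0.0860, a ratio of 4151. On chromosome 9, a minus contig of 3704 nt at level 562 (78325856 to 78329559) met a plus contig of 460 nt at 0.142 tail-to-tail over 402 nt, a ratio of 3958. Their weaker contigs had column 8 values of 0.1, 0.35 and 0.01, against 0 in each stronger contig. Junction ends were found on the stronger strand of these 3 pairs and not on the weaker strand.

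Pairs at the other end were abundant on both strands. Among contigs with a single partner, the highest weaker level was found on chromosome 7, where a minus contig of 125 nt at level 63.7 (111576494 to 111576618) and a plus contig of 121 nt at 57 shared 118 nt, with no junction end in either. On chromosome 6, a minus contig at level 119 (124863624 to 124868406) with 19 junction ends enclosed a plus contig of 192 nt at level 50.1 that had none. Of pairs in the top 1% of weaker levels (4.78 or more), the 3 most even all had junction ends on both strands. Levels were 13.6 and 13.4 on chromosome 13 (head-to-head, plus contig 49063416 to 49065319, 708 nt shared), 20.3 and 20 on chromosome 17 (tail-to-tail, plus contig 46819616 to 46820763, 828 nt shared), and 10.6 and 10.2 on chromosome 9 (tail-to-tail, minus contig 44494391 to 44497243, 441 nt shared).

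Column 8 of the contig table takes 18 values from 0 to 0.58, and its meaning is not stated in the labels or files; the file type reserves the column for a measure of significance. Stronger contigs were at 0 in 78.5% of pairs (interval 78.0 to 79.1) and weaker contigs in 28.1% (interval 27.5 to 28.7). A value of 0.1 or less was held by the stronger contig in 95.4% of pairs and by the weaker contig in 61.0%. Of all contigs of 100 to under 5000 nt, each counted once, 64.9% held such a value. The median was 0 for stronger and 0.06 for weaker contigs. Within pairs the weaker contig had the higher value in 14718 (66.9%), the same value in 6078 (27.6%) and the lower value in 1188 (5.40%). Column 8 moved with level: Spearman's rho between a weaker contig's level and its column 8 was -0.86 (n = 21984). Mean values of the weaker contig were 0.242 at 100 to under 200 nt shared and 0.0613 at 200 to under 500 nt. At 500 to under 1000 nt shared the mean was 0.00194. Contigs with no such overlap, classed by their own length at the same limits, had means of 0.303, 0.0771 and 0.00367. Nested pairs had a weaker median of 0.1, tail-to-tail pairs 0.03 and head-to-head pairs 0.01. The part of contig length in these differences by shared length and arrangement was not tested.

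**Figure D3:**
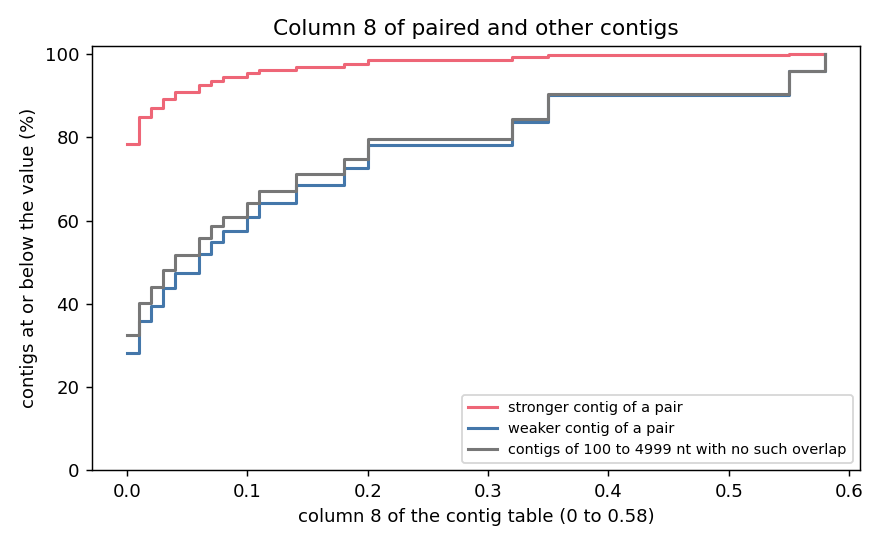
Cumulative percent of contigs (vertical axis) at or below each value of column 8 (horizontal axis), for stronger contigs of pairs, weaker contigs of pairs, and contigs of 100 to under 5000 nt with no such overlap. Stronger and weaker contigs are counted in each of their pairs and include partners of 5000 nt or more, and the other contigs are counted once. Stronger contigs start at 78.5% at a value of 0, weaker contigs at 28.1% and the other contigs at 32.4%, and the last 2 lines run close together.

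The choice of members did not use splice junctions, which come from the same libraries as the contigs. A contig was counted as spliced when the exonic base beside a junction of its own strand lay inside it and the junction had 5 or more reads, the sum of a pair of deposited counts named R1 and R2. How the authors set a junction's strand is not stated in the labels or files. Of the pairs, 1767 (8.04%, interval 7.68 to 8.40) had junction ends in both contigs, 9093 (41.4%) in the stronger contig only, 504 (2.29%) in the weaker only and 10620 (48.3%) in neither. All 41240 pairs that share 1 nt or more at any length had junction ends in both contigs in 5.47%. Taken alone, the stronger contig was spliced in 49.4% of pairs and the weaker contig in 10.3%, with a contig of several partners counted in each of its pairs. The stronger contig is set by level, and splicing moves with level. Among contigs with no such overlap, 0.24% were spliced at levels under 0.1 and 97.1% at 3 to 10. The part of level in the gap between stronger and weaker contigs was not tested.

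Pairs spliced on both strands were more abundant and shared more sequence. Their stronger and weaker medians were 4.32 and 1.01 with a median ratio of 3.30 and 396 nt shared. Pairs spliced in the stronger contig only had medians of 1.71 and 0.152 and a ratio of 9.59, and pairs spliced in neither had 0.240 and 0.105 and a ratio of 2.15. Few faint contigs counted as spliced at this limit on junction reads. Of members always weaker, 0.33% were spliced at levels under 0.1 and 86.0% at 3 to 10. That limit can set part of the levels of these classes, and its part was not tested. The lowest level in the table, 0.032, also bounds the ratio where the stronger contig is faint. Junction ends in both contigs were found in 6.02% of nested, 11.1% of head-to-head and 11.8% of tail-to-tail pairs. Among pairs spliced in the stronger contig only, median ratios in these arrangements were 10.8, 7.64 and 7.45. They were 2.44, 1.82 and 1.87 in pairs spliced in neither, and 3.68, 3.24 and 2.86 in pairs spliced in both. The share was 3.45% at 100 to under 200 nt shared and 45.3% at 1000 nt or more, where 9.32% of pairs were spliced in neither contig. The length of the contigs moves with this share, and its part was not tested. In the 1767 pairs the best junction had a median of 183 reads in the stronger and 27 in the weaker contig. The best junction of the weaker contig had reads in both R1 and R2 in 1667 of them (94.3%), and the stronger contig had the better supported junction in 1432 (81.0%).

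**Figure D4:**
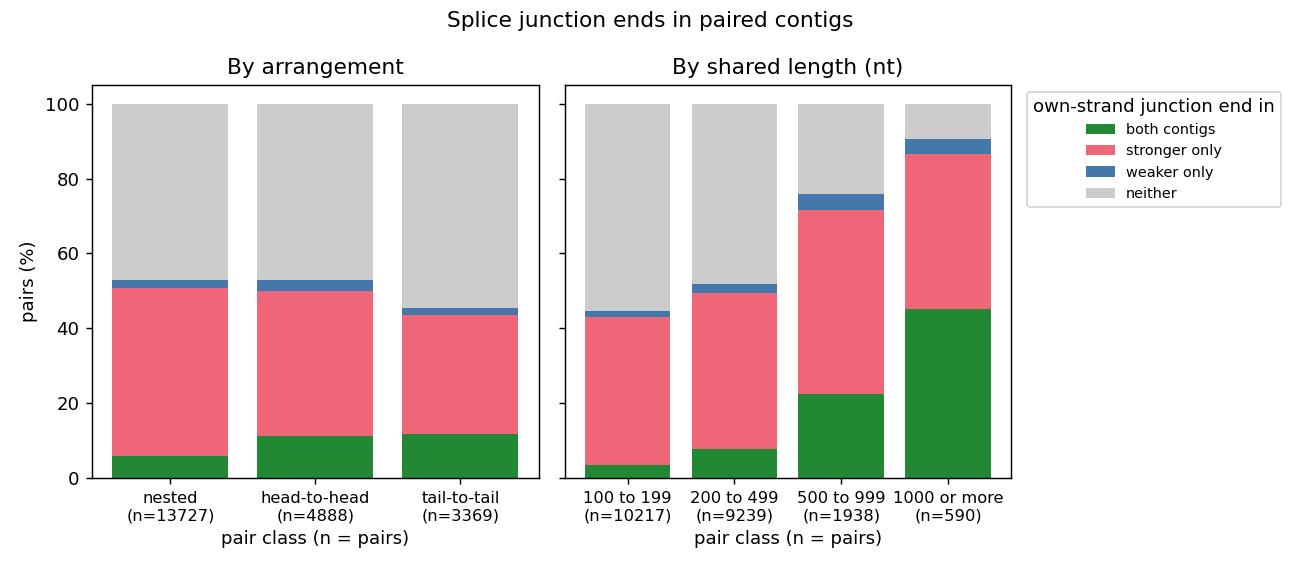
Percent of pairs (vertical axis) with own-strand junction ends in both contigs, the stronger only, the weaker only or neither, by arrangement (left) and by shared length in nt (right), with the number of pairs under each bar. The part with ends in both contigs grows from 3.45% at 100 to under 200 nt to 45.3% at 1000 nt or more.

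Of the single-partner pairs with junction ends on both strands, the 4 tail-to-tail and the 4 head-to-head pairs with the highest weaker levels in their arrangement are given here. Tail-to-tail on chromosome 4, a minus contig at level 36.3 (137868792 to 137870137) and a plus contig at 31.1 (137865946 to 137869363) shared 572 nt, and their best junctions had 1470 and 4782 reads. On chromosome 2, levels were 48.4 on the minus strand (155388917 to 155389943) and 29.9 on the plus strand, with 641 nt shared and best junctions of 2154 and 2396 reads. The chromosome 13 pair (minus contig 38592135 to 38594453) had levels of 30.8 and 25.7, shared 952 nt, and had best junctions of 761 and 1306 reads. The chromosome 10 pair shared 473 nt between a minus contig at 50.7 (127927914 to 127931030) with 43 junction ends and a plus contig at 22.8 with 11. In each of these 4 pairs, chosen for junction ends on both strands, the minus contig was the stronger, by 1.17 to 2.22-fold.

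The 4 head-to-head pairs shared 131 to 708 nt, against 473 to 952 nt in the 4 tail-to-tail pairs. On chromosome 2, a plus contig at level 54.3 (155969756 to 155970888) and a minus contig at 37.7 shared 264 nt, with best junctions of 10813 and 732 reads. A further pair on chromosome 2 had levels of 18.6 (plus contig 26766079 to 26768880) and 17.4 over 131 nt shared, with best junctions of 96 and 653 reads. On chromosome 9, levels were 42.4 (plus contig 50411981 to 50412489) and 16.3 over 276 nt shared, with best junctions of 686 reads on the stronger and 6128 on the weaker strand. The chromosome 13 pair named above for its even levels was the fourth, with 147 reads on the plus and 849 on the minus strand. In 3 of these 4 pairs the weaker contig had the better supported junction.

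**Figure D5:**
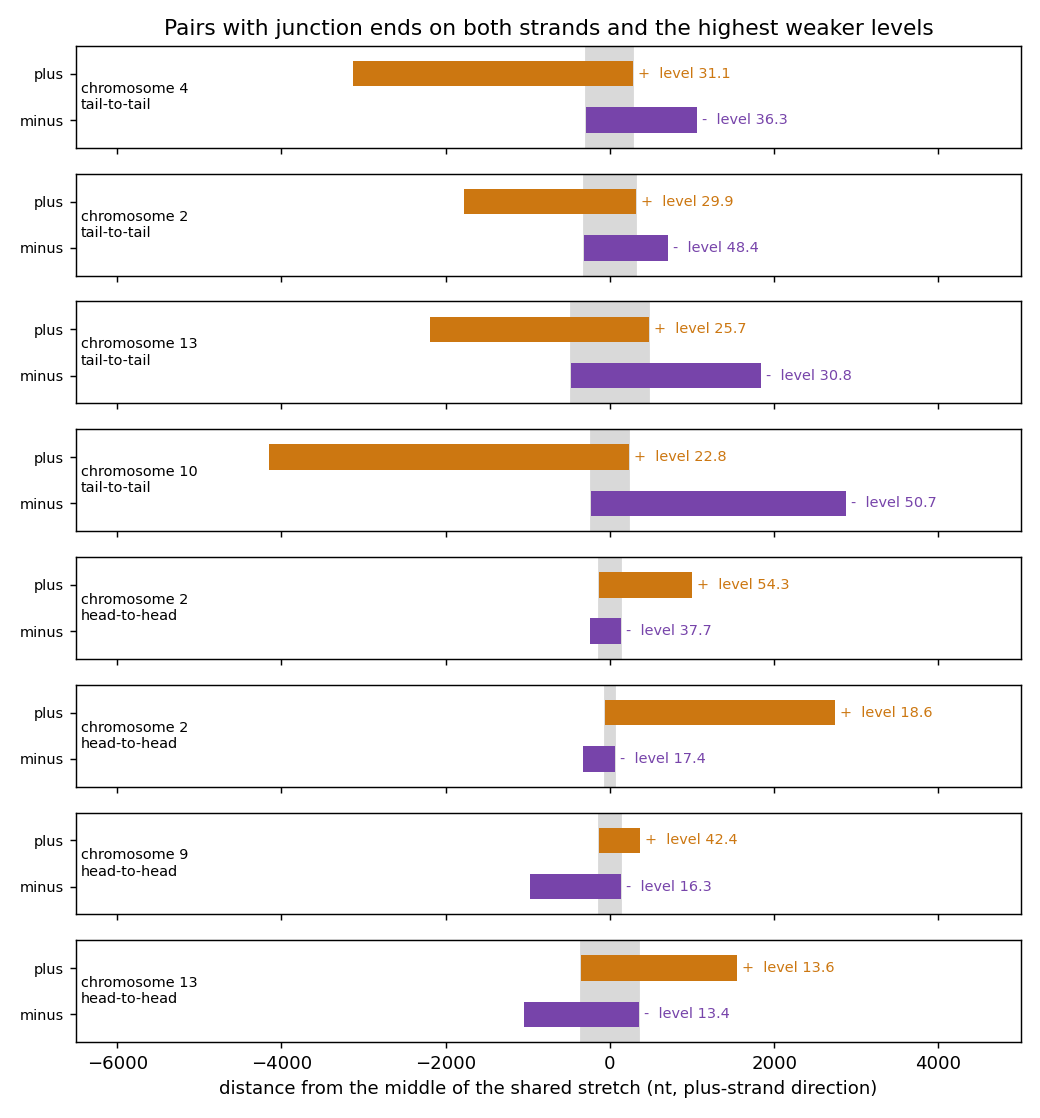
The 4 tail-to-tail and 4 head-to-head single-partner pairs with junction ends on both strands and the highest weaker levels in each arrangement, drawn to scale as distance in nt from the middle of the shared stretch (grey), with the plus contig above the minus contig and the level beside each. Tail-to-tail pairs overlap at the right end of the plus contig and head-to-head pairs at its left end; levels run from 13.4 to 54.3.

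The longest overlaps among contigs with a single partner ran through nearly the whole shorter contig. On chromosome 5, a minus contig at level 16.9 (31253832 to 31259481) and a plus contig at 3.10 shared 3871 nt, with 16 and 18 junction ends and best junctions of 3287 and 269 reads. On chromosome 16, a plus contig at 33.1 (4612856 to 4619633) enclosed a minus contig of 3638 nt at 0.559, a ratio of 59.2, whose best junction had 98 reads. On chromosome 17, a minus contig at 1.85 (36140405 to 36144157) and a plus contig at 0.837 shared 3750 nt. That pair had a single junction end, on the minus strand, with 11 reads in R1 and 0 in R2.

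Set beside the 578549 contigs of 100 to under 5000 nt without such an overlap, members were longer (median 368 nt against 282 nt) and had a higher level (median 0.203 against 0.146). Their median column 8 was 0.01 against 0.04, and a value of 0.1 or less was held by 74.6% against 64.3%. Own-strand junction ends were found in 9910 members (26.5%, interval 26.0 to 26.9) and in 19.1% of the other contigs, with 19.6% over both. Length moved with membership: members made up 4.59% of contigs of 100 to under 200 nt and 15.7% of those of 1000 to under 5000 nt. Within length classes the share spliced was lower in members in the shortest class and higher in the other 3. At 100 to under 200 nt, 11.6% of members and 17.7% of other contigs were spliced, at 200 to under 500 nt 15.0% and 13.9%, at 500 to under 1000 nt 32.8% and 24.7%, and at 1000 to under 5000 nt 62.7% and 53.2%. Levels within these classes remained higher in members, at 1.25 against 0.860 in the longest class and 0.108 against 0.103 in the shortest. Members were also longer within the other 3 classes, with medians of 312 against 301 nt, 685 against 646 nt and 1659 against 1443 nt. In the shortest class both medians were 129 nt. The part of this remaining gap in length was not tested. The gap in column 8 was smaller within length classes. A value of 0.1 or less was held by 24.0% of members and 23.6% of other contigs in the shortest class. At 200 to under 500 nt the shares were 78.7% and 73.9%, and in longer contigs nearly all of both sets held such a value.

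Levels also move with splicing, so members were split by their role and set beside other contigs of like level. At levels of 1 to 3, 413 of 633 members that were the weaker contig in all their pairs were spliced (65.2%, interval 61.4 to 69.0), against 86.5% of members that were the stronger in all their pairs and 91.6% of contigs with no such overlap. Their median length there was 820 nt, against 853 nt and 376 nt. At levels of 3 to 10 the share spliced was 86.0% (197 of 229) of members always weaker, 95.1% of members always stronger and 97.1% of contigs with no such overlap. At levels of 0.1 to 0.3 these shares were 4.17%, 7.01% and 3.50%. These level classes were chosen after the values had been seen, and the differences were not tested.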

How the data were processed

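Per the text records deposited beside the tables, the contig and junction tables are on mm9 in the bedRnaElements file type, with blank replicate fields. No label or file header used here names the aligner, the contig caller or its filters. The deposited contig level is a signal value. Column 9, which the authors left unnamed, was 26.3 to 27.1 times the product of length and level in all contigs. It is read here as summed coverage, and only on that reading is the level proportional to coverage per nt. Column 8 was used as a deposited score of unstated meaning. The deposited junction count equalled R1 plus R2 in every row. Per the file headers, the gene tables give an expected count and TPM per gene, used here for library totals and the tissue check; gene symbols came from GENCODE M21.

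Overlaps were computed in Python 3.11.15 with pandas 2.3.3, NumPy 2.4.6 and SciPy 1.17.1, and checked on simulated contigs against a base-by-base search. Positions are 1-based. No contigs of a strand overlap each other. The minimum shared length was 100 nt, at least 1 contig of a pair was under 5000 nt, and junctions needed 5 reads. Ties in level counted the plus contig as stronger. Named pairs, all with a single partner, were the 4 with the highest weaker level, the 3 longest overlaps, the 3 largest ratios, the 3 most even among the top 1% of weaker levels, and, of pairs spliced on both strands, the 4 tail-to-tail and 4 head-to-head with the highest weaker level. Members, classes and this rule were chosen with earlier results of these data known. Nothing on mm9 was joined to genes on another build, and no sequence is printed.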

Additional observations from a re-analysis of the deposited data

How the results depend on the processing

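The contig table has no column per replicate, so no replicate could be left out, and no test was run whose call could be lost. No paired analysis was possible because there is 1 group. Of 60 values recomputed under alternatives, 19 stayed within 1.5 times a count or within the binomial interval of a median or share, and 41 moved; with 21984 pairs these intervals are narrow. The median ratio lay between 3.11 and 3.65 under all alternatives.

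With a minimum of 1 nt there were 66744 contigs in 41227 pairs, a median overlap of 105 nt, a median ratio of 3.11, 22.4% of ratios at 10 or more, a weaker column 8 median of 0.18 and 5.44% of pairs spliced on both strands. With a minimum of 500 nt these were 4512, 2528, 702 nt, 3.65, 19.5%, 0 and 27.7%. With single-partner pairs only they were 24067, 12155, 198 nt, 3.25, 22.6%, 0.08 and 6.38%. With both contigs at or above the median level of 0.138 they were 18039, 10565, 284 nt, 3.29, 21.7%, 0 and 16.5%, and with column 8 at 0.1 or less in both 22455, 13119, 292 nt, 3.23, 21.5%, 0.01 and 13.3%. With both contigs under 5000 nt the ratio was 3.38, the share at 10 or more 21.8% and the share spliced on both strands 7.24%. That last share was 21.2% with junctions of 1 read, 4.19% with 20 reads and 2.47% with ends inside the shared stretch. The share spliced on both strands thus depends on the limits on reads, length and place.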

Other observations

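Pairs were often linked through a contig with several partners. The 21984 pairs fell into 15931 separate groups of linked contigs, and 12155 of these (76.3%) held a single pair. A minus contig on chromosome 11 (6499379 to 6502925, level 0.7) had the most partners among members, 8 plus contigs with levels between 0.058 and 0.211 that shared 2427 nt with it in all. The largest group held 13 contigs over 10184 nt of chromosome 18 (35765632 to 35775815), with levels between 0.075 and 5.70. Both were chosen for their size after the values were seen.

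Members held 13.8% of column 9, read as summed coverage, of contigs under 5000 nt on chromosomes 1 to 19, in 9.04% of their length. The 478633 junctions on these chromosomes, at any number of reads, included 998 positions listed on both strands with the same ends. Whether such positions lie in the pairs spliced on both strands was not tested.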
